A study of Homo sapiens with 6 samples.

Results

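MYC and 9 genes of nucleolar proteins and RNA polymerase I subunits (NCL, NPM1, FBL, NOP56, NOP58, POLR1A, POLR1B, UTP20 and NOLC1) were followed in MDA-MB-231, an established line of human triple-negative breast cancer cells, with and without shikonin. The members were chosen by name, and a value was held for each one whose symbol stood in the authors' deposited table of differential expression. That was the case for 6 of the 10 members, among 7150 listed genes. The control cells were labelled wild type with no treatment, and the treated cells were labelled wild type with shikonin, a naphthoquinone pigment of plant roots, at 0.5 µM for 24 h. The labels spell the dose unit with a lower-case m, and it is taken as micromolar. Each group held 3 libraries of total RNA from this 1 cell line. The labels name no vehicle for the drug and do not say whether libraries came from separate cultures. The p-values therefore measure only the spread between these libraries, which may be technical.

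Ribosomes are built in the nucleolus. RNA polymerase I transcribes the precursor of the large ribosomal RNAs, small nucleolar ribonucleoproteins (snoRNPs) modify it, and the small subunit processome folds and cuts it, while other assembly factors mature the large subunit. MYC, a transcription factor that binds the E-box sequence together with its partner MAX, is known to drive many of the genes of this pathway, and is often highly expressed in triple-negative breast cancer.

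Of the 10 members, 3 rose with shikonin, 3 fell and 4 were not listed. The genes of FBL, NPM1 and NOP56, which encode abundant nucleolar proteins, were 1.56-fold to 2.47-fold higher per the authors' deposited table. Those of POLR1A and POLR1B, the pair of large subunits of RNA polymerase I, and of UTP20, a scaffold of the small subunit processome, were 2.74-fold to 5.62-fold lower per the authors' deposited table. No value was held for MYC, NCL, NOP58 or NOLC1. Listing took a fold above 1.5 and an adjusted p under 0.05 in the authors' DESeq2 test, so an unlisted one was not past both thresholds, was not tested, or is not analysed here. Of about 14253 genes tested, 50.2% were listed, 25.5% as higher and 24.7% as lower. With 30% of the members higher and 30% lower, the members were called about as often as genes in general, and what set them apart from one another was the direction. Asking for a fold above 2 left 1 member higher and 3 lower, beside 16.4% and 14.6% of all tested genes, and asking for an interval wholly beyond 1.5-fold left the same counts, beside 16% and 14.8%. At an adjusted p below 0.001 (20.5% and 21.2% of all tested genes) or with 100 or more normalized counts on average (19.7% and 22.6%) 3 members were higher and 3 lower.

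**Figure D1:**
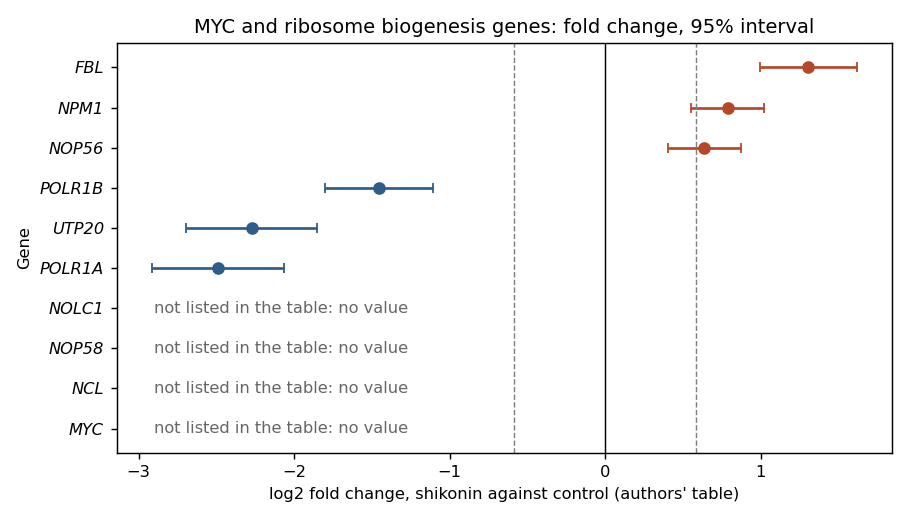
Log2 fold change of shikonin against control per the authors' deposited table (x axis) for each of the 10 members (y axis), with bars for the 95% interval and dashed lines at the 1.5-fold threshold. FBL, NPM1 and NOP56 lie to the right, POLR1B, UTP20 and POLR1A to the left, and the intervals of NPM1 and NOP56 reach below the threshold, while 4 genes carry no value.

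The table holds 0 columns of per-sample values, so the level in each library and the depth of each library are unknown here. Group means were solved from the authors' mean over all libraries and their fold change, taking the 3 and 3 libraries as equal in weight. The direction is that of the authors' own mark, which matched the sign of the fold change in all 7150 genes and is read as higher or lower in shikonin. With the implied totals of listed genes set equal in both groups, every log2 fold change shifts down by 0.39. FBL then stays called as higher, while NPM1 (0.39 on the log2 scale) and NOP56 (0.24) no longer pass the fold threshold, which leaves 1 higher member, beside 15.3% of all tested genes higher and 24.7% lower. The shift moves every gene toward lower, so a gene listed as lower, the 3 members included, cannot lose its call by it. Unlisted genes that it would add on the lower side have no value here, so lower counts under this scaling are fixed by its construction. The mesenchymal marker VIM stood at an implied 46972 normalized counts in control and 81887 in shikonin, and of the 6 mesenchymal markers 2 were listed as higher, 1 as lower and 3 not at all. Among 10 luminal epithelial markers 5 were higher, 1 was lower and 4 were not listed, ESR1 and PGR among these, and the implied sum of the listed ones went from 24429 to 61049 normalized counts. FOXA1 was the luminal marker with the largest rise, 23.4-fold (9.71 to 56.2), from an implied 2.91 to 67.9 normalized counts. Of the 5 immune markers LYZ and CD68 were higher, 8.83-fold (3.39 to 23.0; implied 4.09 to 36.1 normalized counts) and 1.58-fold (1.34 to 1.86; implied 2717 to 4295), and 3 were not listed. Of the 4 endothelial markers PECAM1 was 4.10-fold higher (2.83 to 5.94; implied 69.3 to 284 normalized counts) and 3 were not listed, and of the fibroblast and erythroid markers 0 of 7 were listed. These 4 marker genes were named after their values were seen, and their folds are from the authors' deposited table. The part of these markers in the results below was not tested.

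The E-box was looked for in the promoters, since MYC and MAX bind it. The windows were those of RefSeq (GRCh38.p14), which run from 250 bases before to 50 bases after a start site. Letters searched were CACGTG, which reads the same on both strands. A window was held for 7 of the 10 members, and 2 of them carried the motif, FBL and UTP20, which are 1 higher and 1 lower member. In both the motif lies beside the start site, at bases 7 to 12 of the transcript in FBL and at bases -10 to -5 in UTP20. The 2 sequences are shown with those of NOP10 and NOL8, a snoRNP gene that was higher and a nucleolar gene that was lower, whose motifs lie at bases -11 to -6 and -9 to -4. NOP10 holds another copy further upstream, which is not shown. MNT, which was lower, and MLX, which was higher, are added as genes of the MYC network. MXD4 and USP28 of that network, both lower, also held the motif and are not shown. The sequences printed are examples, so their split by direction is not a result. The motif is in capitals, and each sequence is read 5′ to 3′ on the strand of its gene.
FBL, chr19:39846356-39846385, minus strand: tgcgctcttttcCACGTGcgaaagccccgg
UTP20, chr12:101280083-101280112, plus strand: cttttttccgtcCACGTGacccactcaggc
NOP10, chr15:34343130-34343159, minus strand: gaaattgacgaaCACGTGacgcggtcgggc
NOL8, chr9:92325342-92325371, minus strand: gctccgttgggaCACGTGaccagaagttag
MNT, chr17:2401236-2401265, minus strand: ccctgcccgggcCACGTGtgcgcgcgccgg
MLX, chr17:42567038-42567067, plus strand: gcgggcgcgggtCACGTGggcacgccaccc
These letters are a match and not a site of measured binding. No member with a window other than FBL and UTP20 held CACGTG.

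RNA polymerase I is the enzyme that starts ribosome production, and the genes of its 2 large subunits fell. POLR1A, which encodes the largest subunit and had the largest fall among the listed members, went from an implied 3662 normalized counts in control to 651 in shikonin. Its log2 fold change in the authors' deposited table was -2.49 ± 0.22 (standard error), which is 5.62-fold lower (95% interval 4.19 to 7.54) at a DESeq2 adjusted p of 5.29e-29. POLR1A lies on chromosome 2 from 86020216 to 86106155 (GRCh38, GENCODE 29), with 34 exons in its principal transcript. POLR1B, which encodes the second-largest subunit, went from an implied 1099 to 401 normalized counts. In the authors' deposited table its log2 fold change was -1.45 ± 0.18, or 2.74-fold lower (2.15 to 3.49; DESeq2 adjusted p = 2.88e-15). POLR1B is also on chromosome 2, from 112541915 to 112577150, with 15 exons. POLR1A fell by more than POLR1B: the difference between the 2 log2 fold changes was -1.04, with an interval of -1.59 to -0.49 that treats the estimates as independent.

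Most of the smaller subunits of the same enzyme rose. Of the 13 subunit genes, 7 rose (53.8%, beside 25.5% of all tested genes), 3 fell (23.1%, beside 24.7%) and 3 (POLR1E, POLR1F and POLR1G) were not listed. POLR2L, a small subunit shared by RNA polymerases I, II and III, was 2.48-fold higher (1.95 to 3.15) per the authors' deposited table. POLR1D, an assembly platform subunit shared by polymerases I and III, was 2.27-fold higher (1.80 to 2.85) per the authors' deposited table. Named after their values were seen, POLR1H and the shared subunits POLR2K, POLR2F, POLR2E and POLR2H were 1.63-fold to 2.44-fold higher per the authors' deposited table. POLR1C, the dimer partner of the POLR1D protein, was the third gene to fall, 1.53-fold (1.26 to 1.87) per the authors' deposited table, and was also named after its value was seen. The partners of this dimer thus moved in opposite directions, POLR1C from an implied 735 to 479 normalized counts and POLR1D from 707 to 1605.

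Factors that load polymerase I onto ribosomal DNA were lower where listed. Of 8 initiation and termination factors, 3 fell (37.5%, beside 24.7% of all tested genes), 0 rose and 5 were not listed, RRN3 and TTF1 among these. UBTF, which keeps ribosomal DNA repeats open, was 1.79-fold lower (1.48 to 2.18) per the authors' deposited table, and TAF1C, a subunit of the promoter selectivity factor, was 1.75-fold lower (1.38 to 2.22). With a fold above 2, or the interval wholly beyond 1.5-fold, 0 of the 3 lower factors stayed called. RNA polymerase III, which makes 5S RNA and transfer RNA, was split as well. Of its 21 genes 8 fell (38.1%, beside 24.7%), 3 rose (14.3%, beside 25.5%) and 10 were not listed. GTF3C1, the largest subunit of factor TFIIIC, and BDP1, a subunit of TFIIIB, were 2.53-fold (2.14 to 2.98) and 4.58-fold (3.24 to 6.47) lower per the authors' deposited table. POLR3A and POLR3B, the large subunits and named after their values were seen, were 2.14-fold (1.76 to 2.60) and 2.04-fold (1.61 to 2.60) lower per that table. POLR3K, a small subunit, was 1.97-fold higher (1.44 to 2.68) and GTF3A, the 5S-specific factor TFIIIA, 1.80-fold higher (1.47 to 2.19) per the authors' deposited table. With equal implied totals 0 of the 3 higher polymerase III genes stayed called.

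The listed core proteins of snoRNPs rose. FBL encodes fibrillarin, the methyltransferase of box C/D snoRNPs, and went from an implied 2070 normalized counts in control to 5122 in shikonin. Its log2 fold change in the authors' deposited table was 1.31 ± 0.16, or 2.47-fold higher (1.99 to 3.08; DESeq2 adjusted p = 3.41e-15). FBL lies on chromosome 19 from 39834458 to 39846414, with 9 exons. NOP56, a scaffold protein of the same particle, went from an implied 2548 to 3965 normalized counts. In the authors' deposited table its log2 fold change was 0.64 ± 0.12, or 1.56-fold higher (1.32 to 1.83; DESeq2 adjusted p = 4.16e-07), and it is the listed member closest to the fold threshold. NOP56 lies on chromosome 20 from 2652145 to 2658393, has 12 exons, and carries 5 snoRNA genes within its span, none of which were listed. FBL rose by more than NOP56, with a difference of 0.67 between their log2 fold changes (0.28 to 1.06, taking the estimates as independent). NOP58, which pairs with NOP56 in the particle and spans 202265716 to 202303666 on chromosome 2, was not listed, so the pair cannot be compared here.

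Of the 8 core proteins of box C/D and H/ACA snoRNPs, 5 rose (62.5%, beside 25.5% of all tested genes), 0 fell and 3 (NOP58, DKC1 and GAR1) were not listed. NOP10, a small H/ACA protein, was 2.94-fold higher (2.37 to 3.65) per the authors' deposited table. The list's median log2 fold change was 1.20, beside 0.60 over all listed genes, where higher and lower genes are mixed. Under the scaling to equal totals 3 of the 5 stayed called. Of the 11 factors that assemble snoRNPs, 3 were higher, 3 lower and 5 not listed, which is 27.3% in each direction and near the 25.5% and 24.7% of all tested genes. PIH1D1 and RUVBL2, both parts of the R2TP chaperone complex, were 3.07-fold (2.44 to 3.87) and 2.31-fold (1.91 to 2.80) higher per the authors' deposited table. ZNHIT6, a box C/D assembly factor, and TCOF1, the nucleolar protein treacle, were 1.96-fold (1.47 to 2.61) and 1.61-fold (1.24 to 2.09) lower per the authors' deposited table. NOLC1, a nucleolar chaperone that accompanies snoRNPs, belongs to this list and was not listed (chromosome 10, 102152176 to 102163871).

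NPM1 encodes nucleophosmin, the abundant protein of the outer nucleolus. It went from an implied 16855 normalized counts in control to 29089 in shikonin. The log2 fold change in the authors' deposited table was 0.79 ± 0.12, or 1.73-fold higher (1.46 to 2.03; DESeq2 adjusted p = 3.84e-10). NPM1 lies on chromosome 5 from 171387116 to 171411137, with 11 exons, and GENCODE 29 names 45 pseudogenes after it. The pseudogenes were found by name, 0 of them were listed, and their likeness to NPM1 in sequence was not measured. Reads can be split between a gene and such copies, so the value of NPM1 is uncertain. Of the 8 abundant nucleolar proteins 3 rose (37.5%, beside 25.5%), 2 fell (25.0%, beside 24.7%) and 3 were not listed. NOP53, a nucleolar protein of large subunit maturation, was 2.95-fold higher (2.35 to 3.72) per the authors' deposited table. MYBBP1A, a nucleolar protein first named for binding MYB, and NOL8 were 2.34-fold (1.92 to 2.85) and 1.86-fold (1.41 to 2.44) lower per the authors' deposited table. NCL encodes nucleolin, an RNA-binding protein of the nucleolus. It spans 231453531 to 231483641 on chromosome 2, carries 3 snoRNA genes, and was not listed.

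Per kilobase of mature transcript, NPM1 stood highest among the listed members in both groups. Its implied level was 9588 normalized counts per kilobase in control and 16547 in shikonin. FBL followed with 1784 and 4415, and NOP56 with 1062 and 1652. POLR1A came next in control with 287, then POLR1B with 241 and UTP20 with 189. In shikonin these 3 stood at 51.1, 88.1 and 39.2. By this measure POLR1B and not POLR1A was the higher of the polymerase pair. That rests on the annotated lengths, 12749 nt for POLR1A and 4558 nt for POLR1B, whose coding sequences are 5160 nt and 3519 nt. Without division by length POLR1A stayed the higher, at an implied 651 normalized counts in shikonin against 401. No spread over libraries is held for the levels per kilobase, so neighbours in their order could not be compared against one. FBL and POLR1A moved apart, from 1784 against 287 in control to 4415 against 51.1 in shikonin.

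**Figure D2:**
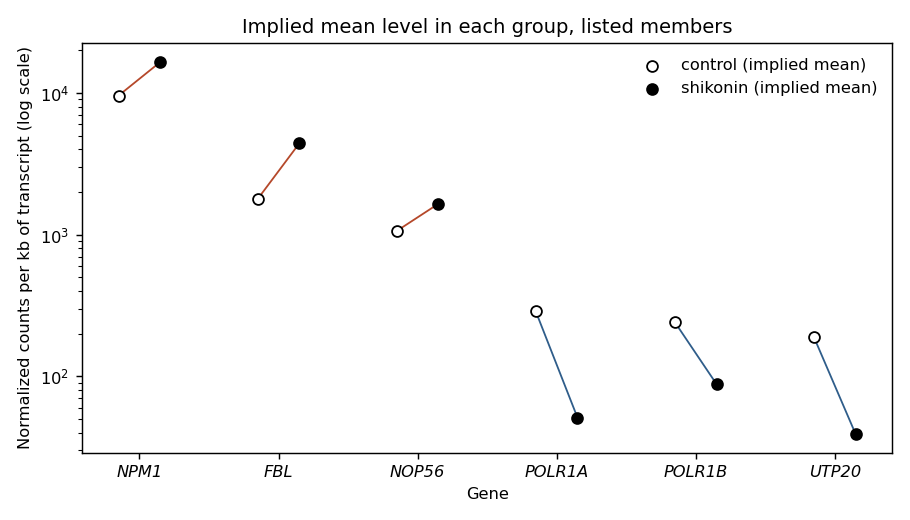
Implied mean of each listed member (x axis) in normalized counts per kilobase of its principal transcript (y axis, log scale), with open points for control and filled points for shikonin. NPM1, FBL and NOP56 lie between 1062 and 16547 and rise, while POLR1A, POLR1B and UTP20 lie between 39.2 and 287 and fall.

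The small subunit processome, the large particle that forms on the nascent ribosomal RNA, was mostly lower where listed. UTP20 went from an implied 1708 normalized counts in control to 353 in shikonin. Its log2 fold change in the authors' deposited table was -2.27 ± 0.22, or 4.83-fold lower (3.61 to 6.48; DESeq2 adjusted p = 1.59e-24). UTP20 lies on chromosome 12 from 101280109 to 101386616, with 62 exons. Of 55 genes of the processome and of small subunit maturation, 17 fell, 3 rose and 35 were not listed. That is 30.9% lower, beside 24.7% of all tested genes, and 5.45% higher, beside 25.5%. PDCD11, a long scaffold protein of the processome, was 3.08-fold lower (2.51 to 3.78) per the authors' deposited table. UTP11 and NOB1, the latter being the nuclease that makes the final cut of 18S RNA, were 1.66-fold higher (1.37 to 2.01 and 1.37 to 2.03) per the authors' deposited table. With equal implied totals 0 of the 3 higher genes of this list stayed called.

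Among 62 assembly factors of the large subunit 13 fell, 10 rose and 39 were not listed. These shares, 21.0% lower and 16.1% higher, lie below the 24.7% and 25.5% of all tested genes. GNL3L, a nucleolar GTPase, and RRP1B were 4.88-fold (3.95 to 6.03) and 3.79-fold (3.10 to 4.62) lower per the authors' deposited table. EIF6, which keeps the subunits apart until the large one is mature, and NSA2 were 2.24-fold (1.85 to 2.72) and 2.14-fold (1.78 to 2.57) higher per that table. Genes of the RNA exosome and of ribosomal RNA decay were mostly higher where listed. Of 16, 8 were higher (50%, beside 25.5% of all tested genes), 2 lower (12.5%, beside 24.7%) and 6 not listed. With a fold above 2, the interval wholly beyond 1.5-fold, or equal implied totals, 4 of the 8 stayed higher. EXOSC1 and EXOSC8, which encode small structural subunits, were 2.33-fold (1.89 to 2.87) and 2.43-fold (1.95 to 3.04) higher per the authors' deposited table. EXOSC6, another structural subunit, and DIS3, the catalytic nuclease, were 1.93-fold (1.55 to 2.40) and 1.72-fold (1.37 to 2.17) lower per the authors' deposited table. Of 16 snoRNA host genes only SNHG32 was listed, 5.37-fold higher (4.07 to 7.08) per the authors' deposited table. The listed genes hold 6920 protein-coding genes, 218 pseudogenes, 1 lincRNA or antisense gene and 0 snoRNA genes, so the absence of the other hosts says little.

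**Figure D3:**
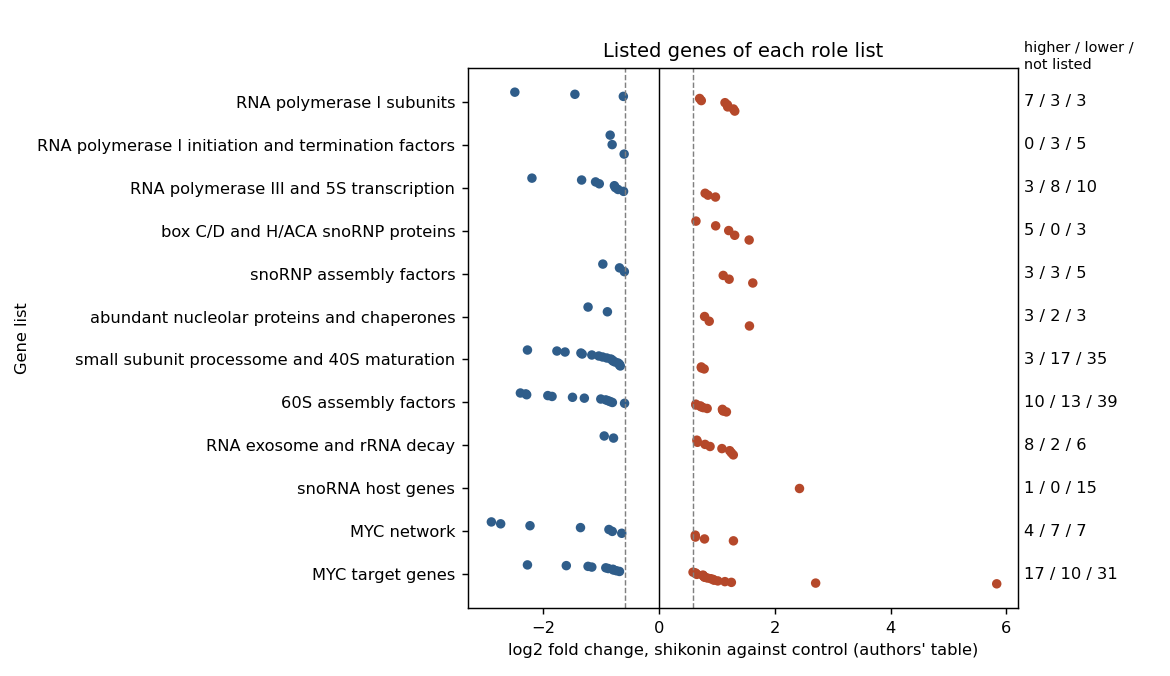
Log2 fold change per the authors' deposited table (x axis) of each listed gene in 12 gene lists (y axis), with 1 point per gene and dashed lines at the 1.5-fold threshold. The numbers at the right count genes listed higher, listed lower and not listed, with snoRNP proteins all to the right and 17 of 20 listed processome genes to the left.

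Over the 10 role lists together, with 218 distinct genes, 94 were listed, 43 as higher and 51 as lower, with a median log2 fold change of -0.61. That is 43.1% listed, 19.7% as higher and 23.4% as lower, beside 50.2%, 25.5% and 24.7% of all tested genes. All listed genes had a median of 0.60 and were 50.8% higher. No listed gene lies within 1.5-fold of control, so each of these medians falls at an edge of that gap. Its sign follows which direction holds more genes, and the difference between the medians does not measure the size of a shift. Without the snoRNA hosts, a choice made after the data were seen, 93 of 202 genes were listed (46.0%), 42 higher and 51 lower. Scaled to equal implied totals, 21 of the 218 were higher, beside 15.3% of all tested genes.

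Direction went with transcript length inside this pathway, as it did across the table. The 6 listed members, ordered by the length of the principal transcript, were FBL (1160 nt), NPM1 (1758 nt), NOP56 (2400 nt), POLR1B (4558 nt), UTP20 (9025 nt) and POLR1A (12749 nt), and this was also their order from the highest to the lowest fold change. By coding sequence length the match was not exact, with a Spearman's rho of -0.89 against log2 fold change across the 6. Among the 94 listed genes of the role lists, 32 of the 34 with transcripts up to 2000 nt were higher and 34 of the 35 above 4000 nt were lower. Spearman's rho between length and log2 fold change was -0.84 across these 94 genes and -0.70 across 6920 listed protein-coding genes. Genes share libraries and are not independent replicates, so no p is given. The 34 short genes were 94.1% higher, beside 95.2% of all listed genes in that range, and the long ones 2.86% higher, beside 10.9%. Above 2000 and up to 4000 nt, 40% of 25 role-list genes were higher, beside 60.9% of all listed genes in that range, with medians of -0.68 and 0.73. These medians differ in sign because most of the former genes were lower and most of the latter higher. No listed value lies within the 1.5-fold threshold, so the gap between the medians does not measure the size of a shift. The part of transcript length in the members' changes was not tested.

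Placed among listed genes of their own length decile, the members stood as follows. FBL was at percentile 64.6 of log2 fold change, NPM1 at 31.5 and NOP56 at 25. POLR1B was at percentile 9.39, POLR1A at 7.66 and UTP20 at 14.6. The lower members thus fell further than most listed genes of like length, and NPM1 and NOP56 rose less than most. For POLR1B the percentile was 19.8 when length was taken from the transcript with the longest coding sequence. The decile of UTP20 and POLR1A had a median log2 fold change of -1.55 and was 4.48% higher. POLR1C went against its length, with 1355 nt and percentile 3.18, and so did GNL3L, with 2357 nt and percentile 0.43. In the other direction NSA2, with 4594 nt, stood at percentile 91.0. POLR1C was picked here for its value. These lengths are those of annotated transcripts, and which transcript the cells made was not measured.

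**Figure D4:**
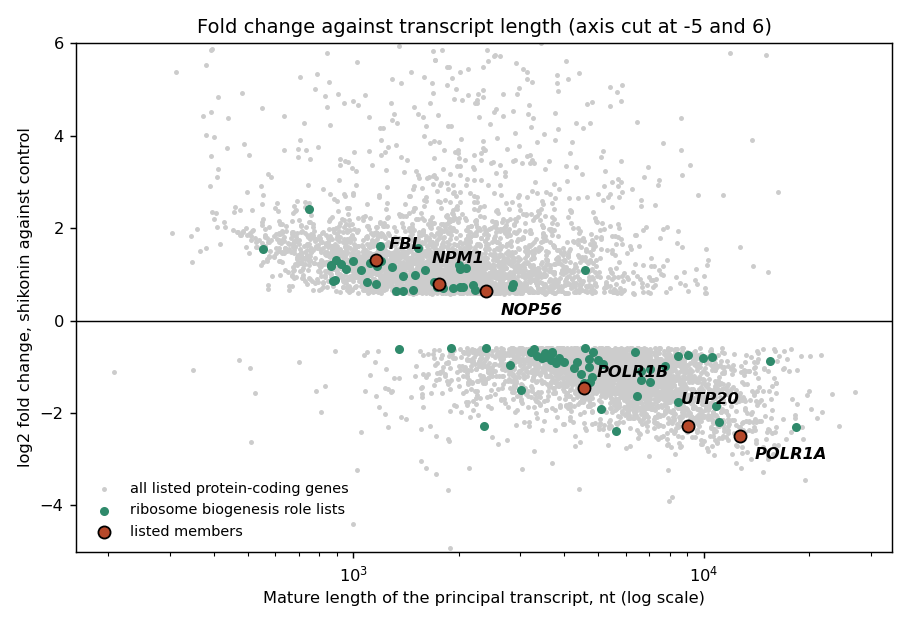
Log2 fold change of shikonin against control (y axis, shown from -5 to 6) against mature length of the principal transcript in nt (x axis, log scale) for 6920 listed protein-coding genes in grey, role-list genes in green and the 6 listed members in red. The members run from FBL at 1160 nt and 1.31 down to POLR1A at 12749 nt and -2.49, and the gap around 0 is the authors' fold threshold.

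MYC (chromosome 8, 127735434 to 127741434) was not listed, and neither was its partner MAX. Of 18 genes of the MYC network, 7 fell (38.9%, beside 24.7% of all tested genes), 4 rose (22.2%, beside 25.5%) and 7 were not listed. MGA, which pairs with MAX in a repressive complex, was 7.45-fold lower (5.44 to 10.2; implied 889 to 119 normalized counts) per the authors' deposited table. MYCBP2, a large ubiquitin ligase first named for binding MYC, was 6.66-fold lower (4.78 to 9.28) per the authors' deposited table. MLXIP, a glucose-sensing partner of MLX, was 4.69-fold lower (3.58 to 6.13) per the authors' deposited table, while MLX itself was 1.55-fold higher (1.28 to 1.86). Among the repressors that compete with MYC for MAX, MNT and MXD4 were 2.56-fold (1.94 to 3.37) and 1.75-fold (1.44 to 2.12) lower per the authors' deposited table. MXD3 and MXD1 of the same family were 2.44-fold (1.92 to 3.10) and 1.54-fold (1.20 to 1.98) higher per that table. FBXW7, the ubiquitin ligase subunit that marks MYC for degradation, and USP28, the enzyme that removes that mark, were 1.56-fold (1.19 to 2.05) and 1.82-fold (1.37 to 2.43) lower per the authors' deposited table. MYCL, a paralog of MYC, was 1.72-fold higher (1.10 to 2.69; DESeq2 adjusted p = 0.0290) per the authors' deposited table, at an implied 59.1 and 102 normalized counts. Of the 4 higher genes only MXD3 stayed called with equal implied totals.

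Known MYC target genes did not move one way. Of 58 targets 17 rose (29.3%, beside 25.5% of all tested genes), 10 fell (17.2%, beside 24.7%) and 31 were not listed. Targets with roles in ribosome biogenesis, 25 of them, were 4 higher (16%), 6 lower (24%) and 15 not listed. The other 33, which count MYC itself, were 13 higher (39.4%), 4 lower (12.1%) and 16 not listed. Both stand beside the same 25.5% and 24.7% of all tested genes. DUSP2, a phosphatase of MAP kinases, was 57-fold higher (38 to 85.6) per the authors' deposited table, from an implied 19.5 normalized counts in control to 1113. HSPE1, the mitochondrial co-chaperone HSP10, was 6.53-fold higher (5.24 to 8.13) in that table, and is also a heat shock gene. The most firmly lower targets were UTP20 and HK2, a glycolytic hexokinase, which was 3.03-fold lower (2.45 to 3.76) per the authors' deposited table. Scaling to equal totals left 5 targets higher. The lower targets had a median length of 4642 nt and the higher ones of 1952 nt.

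The E-box was frequent near the start sites of the role-list genes. CACGTG was found in 55 of 186 role-list genes with a window (29.6%) and in 2396 of 27305 genes overall (8.77%), or 7.26% of all 35116 windows. By direction, 18 of 43 lower role-list genes (41.9%) and 4 of 38 higher ones (10.5%) held it, with 33 of 105 (31.4%) among those not listed. Over all listed genes the shares were 12.9% of the lower and 11.9% of the higher. Processome genes made up much of the lower share, with the motif in 9 of the 15 lower genes with a window and in 0 of the 3 higher ones, while FBL and NOP10 were 2 of the 4 higher genes that held it. Length moved with these counts too: the motif was in 12 of 29 lower genes above 4000 nt and in 4 of 27 higher genes up to 2000 nt, and between these lengths in 6 of 13 lower and 0 of 10 higher genes. In 25 of the 55 role-list genes (45.5%) no motif lay wholly before the start site, as in FBL, beside 286 of 2396 genes overall (11.9%). With only the bases before the start site searched, the motif was in 30 of 186 role-list genes (16.1%), beside 7.73% of genes overall. It was then in 20.9% of the lower and 7.89% of the higher role-list genes, beside 11.5% and 11.0% of all listed genes. Those shares were 9 of 43 and 3 of 38 genes, with 95% intervals of 10.0% to 36.0% and 1.66% to 21.4%, which overlap. In the whole window the intervals were 27.0% to 57.9% for the lower and 2.94% to 24.8% for the higher role-list genes, which do not overlap. Genes are not independent replicates, and neither difference was tested.

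**Figure D5:**
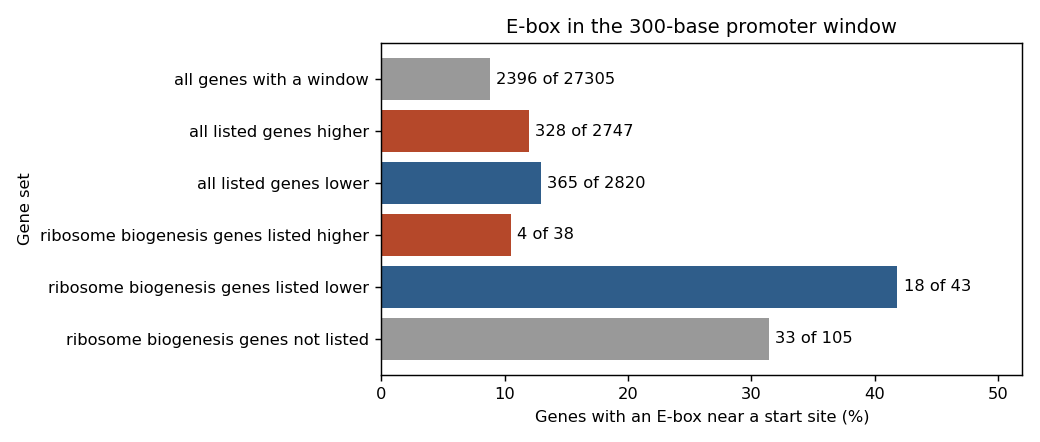
Share of genes with at least 1 E-box in a promoter window of 300 bases (x axis, percent, from 0) in 6 gene sets (y axis), with the counts beside each bar, red for listed higher, blue for listed lower and grey for other sets. The lower role-list genes stand at 41.9% and the higher ones at 10.5%, while all listed genes stand at 12.9% and 11.9%.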

How the data were processed

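RNA of 3 control and 3 shikonin libraries was sequenced after NEBNext Ultra library preparation, per the labels' protocols. The tools fastp, HISAT2 2.0.5, the hg38 build and DESeq2 are named in the submitters' processing notes. For the read counter, annotation, RNA selection and strandedness, the sources used here give nothing. What the authors' deposited table gives is, per the file headers, a mean signal over all libraries (counts divided by size factors), a log2 fold change with its standard error, a Wald score, and a p-value with its adjusted value. No counts per sample are in it, so the planned fits of samples were not run, and depth is unknown.

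Computed here with Python 3.11.15, pandas 2.3.3 and SciPy 1.17.1: implied group means, normal 95% intervals, the number of genes tested (from adjusted p, rank and p, checked on 3 simulated tables), list counts, transcript lengths and positions (GENCODE 29, 7142 genes matched by identifier), and the motif in RefSeq windows (GRCh38.p14, matched by symbol). Mature length came from the longest APPRIS principal transcript. Deciles were of listed protein-coding genes.

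The members and lists were chosen with earlier results of these data known. Lists were written from general knowledge, and 1 gene was matched by an older symbol. Named were all members and listed MYC network genes, and from each other list the 2 genes with the largest positive and the 2 with the most negative Wald score, with exceptions marked. Likeness of pattern between genes was not computed, for lack of per-sample values. Alternatives were other thresholds, a minimum mean, equal implied totals, another reference transcript, current symbols and a shorter window.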

Additional observations from a re-analysis of the deposited data

How the results depend on the processing

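With a fold above 2 in place of 1.5, 1 member was higher and 3 were lower. Of the 218 role-list genes 21 were then higher and 22 lower (43 and 51 at 1.5), beside 16.4% and 14.6% of all tested genes. With the 95% interval wholly beyond 1.5-fold, 1 member was higher. By that interval 22 role-list genes were higher and 26 lower, beside 16% and 14.8% of all tested genes. With equal implied totals 1 member and 21 role-list genes were higher, beside 15.3% of all tested genes, and lower counts could not change by construction. FBL was the member that stayed higher in each. An adjusted p below 0.001 and a minimum mean of 100 normalized counts kept the member and role-list counts within 1.5 times, and so did current symbols only and leaving out the snoRNA hosts for the role-list counts, the only ones they were run on. With the motif searched only before the start site, 1 member held it. Of 48 named genes, under the 5 alternatives run on them, 19 lost their call with a fold above 2, 18 by the interval, 9 with equal totals, 3 at an adjusted p below 0.001 and 1 by the minimum mean. No paired analysis was possible because the table holds no per-sample values, and for the same reason leaving out each replicate and other normalizations of counts were not run. Depth cannot be judged, and unlisted genes cannot be told apart from untested ones.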
